A study of Mus musculus with 9 samples.

Results

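Expression of 8 genes that encode secreted modulators of Wnt signalling was followed in right ventricular myocardium. They are the secreted frizzled-related proteins Sfrp1, Sfrp2, Sfrp4, Sfrp5 and Frzb, the Dickkopf proteins Dkk2 and Dkk3, and Wnt inhibitory factor Wif1. Every probe set that the platform annotation assigns to exactly 1 of these symbols was taken, which gave 15 probe sets for 8 of the 18193 genes measured. The set was chosen by measured values, after the large difference of Sfrp2 between banded and sham ventricles had been seen. The differences of its members between these groups are therefore a description, and no p-value is given for a member.

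The tissue came from male C57BL6J mice aged 6 to 8 weeks, 5 arrays from mice with pulmonary banding and 4 from sham-operated mice. Banding narrows the pulmonary artery and loads the right ventricle with pressure, and the sham mice carry no band. Its RNA was measured on Affymetrix mouse arrays of one colour, and values are log2 expression on each array, normalised by the authors. Nothing in the labels says that the numbered replicates are different mice, so p-values measure the spread between these arrays, whose number limits the precision. Neither the time since surgery nor the pressure reached is given in the sources used here. All 4 sham arrays carried liver transcripts: all 14 liver markers were lower in banding, with a summed log2 level of 6.75 to 9.74 in banding and 13.32 to 17.04 in sham. Alb, the serum albumin gene, averaged 3.99 in banding and 12.84 in sham. Banding replicate 5 also carried liver transcripts, with Alb at 8.51 against 2.34 to 3.31 on the other banding arrays. The part of liver RNA in the differences between groups was not tested.

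Wnt proteins are lipid-modified signals that bind Frizzled receptors together with a coreceptor, Lrp5 or Lrp6 in the branch that stabilises beta-catenin and Ror1, Ror2 or Ryk in the other branches. Secreted frizzled-related proteins carry a cysteine-rich domain like that of the Frizzled receptors and bind Wnts outside the cell, as does Wif1 through a domain of its own. Dickkopf proteins act on the coreceptors, except Dkk3, a divergent member of that family. In the adult heart the pathway is mostly quiet, and it has been studied in fibrosis and in the response of cardiac fibroblasts to injury.

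The promoters of Sfrp2 and Frzb, which were higher in banding, and of Wif1, which was lower, are shown because they are the members above the dim level that had a promoter window. Each is the 250 bases before the transcript start in RefSeq, build GRCm38.p6, written 5′ to 3′ on the gene's own strand, with motif matches in capitals. The Frzb and Wif1 windows lie outside the annotated extent of their genes, and the Sfrp2 window overlaps that of Sfrp2.
Sfrp2, chr3:83766071-83766320, plus strand: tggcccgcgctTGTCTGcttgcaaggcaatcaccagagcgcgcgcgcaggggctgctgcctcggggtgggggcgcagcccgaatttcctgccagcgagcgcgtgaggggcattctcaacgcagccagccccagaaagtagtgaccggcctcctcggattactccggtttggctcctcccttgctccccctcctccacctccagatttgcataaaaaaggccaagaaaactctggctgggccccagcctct
Frzb, chr2:80447397-80447646, minus strand: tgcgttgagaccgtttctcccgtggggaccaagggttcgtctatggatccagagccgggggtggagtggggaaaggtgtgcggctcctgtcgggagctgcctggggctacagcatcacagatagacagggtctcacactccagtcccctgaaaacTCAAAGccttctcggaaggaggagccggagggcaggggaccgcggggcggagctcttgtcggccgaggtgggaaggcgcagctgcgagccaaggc
Wif1, chr10:121033754-121034003, plus strand: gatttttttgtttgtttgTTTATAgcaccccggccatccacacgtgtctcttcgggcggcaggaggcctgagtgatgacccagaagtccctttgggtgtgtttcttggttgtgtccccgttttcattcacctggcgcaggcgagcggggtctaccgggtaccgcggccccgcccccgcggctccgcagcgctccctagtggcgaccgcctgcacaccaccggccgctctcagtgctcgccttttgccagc

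A set of 5 motifs was searched on both strands in these 250 bases, and 5 of the 8 genes had a window. The SMAD element CAGACA was matched once in Sfrp2, 239 to 234 bases before the start, on the opposite strand, and is present in 17.1% of all 32851 windows. The TCF/LEF core CTTTGA was matched once in Frzb, 95 to 90 bases before the start, on the opposite strand, and is present in 13.8% of all windows. The TATA box TATAAA was matched in Wif1 on the opposite strand, 232 to 227 bases before the start, and in Dkk2, 32 to 27 bases before the start, against 12.4% of all windows. The AP-1 motif TGANTCA (6.75% of all windows) and the TEAD motif GGAATG (12.6%) had no match in the 5 windows, and the Sfrp5 window held none of the 5 motifs. These are matches of letters only. The GC content was 63.6% for Sfrp2, 64.4% for Frzb and 62.8% for Wif1, against a median of 52.4% over all windows.

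In banded ventricles, Sfrp2, Sfrp1, Frzb and Dkk3 were higher than in sham ventricles by 5.45-fold to 99.6-fold, and Wif1 was 2.72-fold lower. Sfrp4, Sfrp5 and Dkk2 were dim on every array, below 4.198, which is 2 log2 units above the lowest value in the table (2.198). In the limma fit over all 18193 genes, 4 members were past an adjusted p of 0.05 in the higher direction, a direction in which 18.4% of all genes passed. Another 2, Wif1 and the dim Sfrp5, were past it in the lower direction, in which 20% of all genes passed. In all, 38.4% of the genes passed. Among the 11013 genes above the dim level in at least 1 group, 62% passed, 29.8% of them higher and 32.2% lower. Counted by probe set, 10 of 15 passed in the higher direction and 2 in the lower, where 31.4% of all probe sets passed and 15.3% passed in the higher. The same contrast chose the members, so nothing is read from these counts. The banding arrays lay wholly above the sham arrays for 4 members, as for 17.4% of all genes, and wholly below for 2, as for 19.3%.

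**Figure D1:**
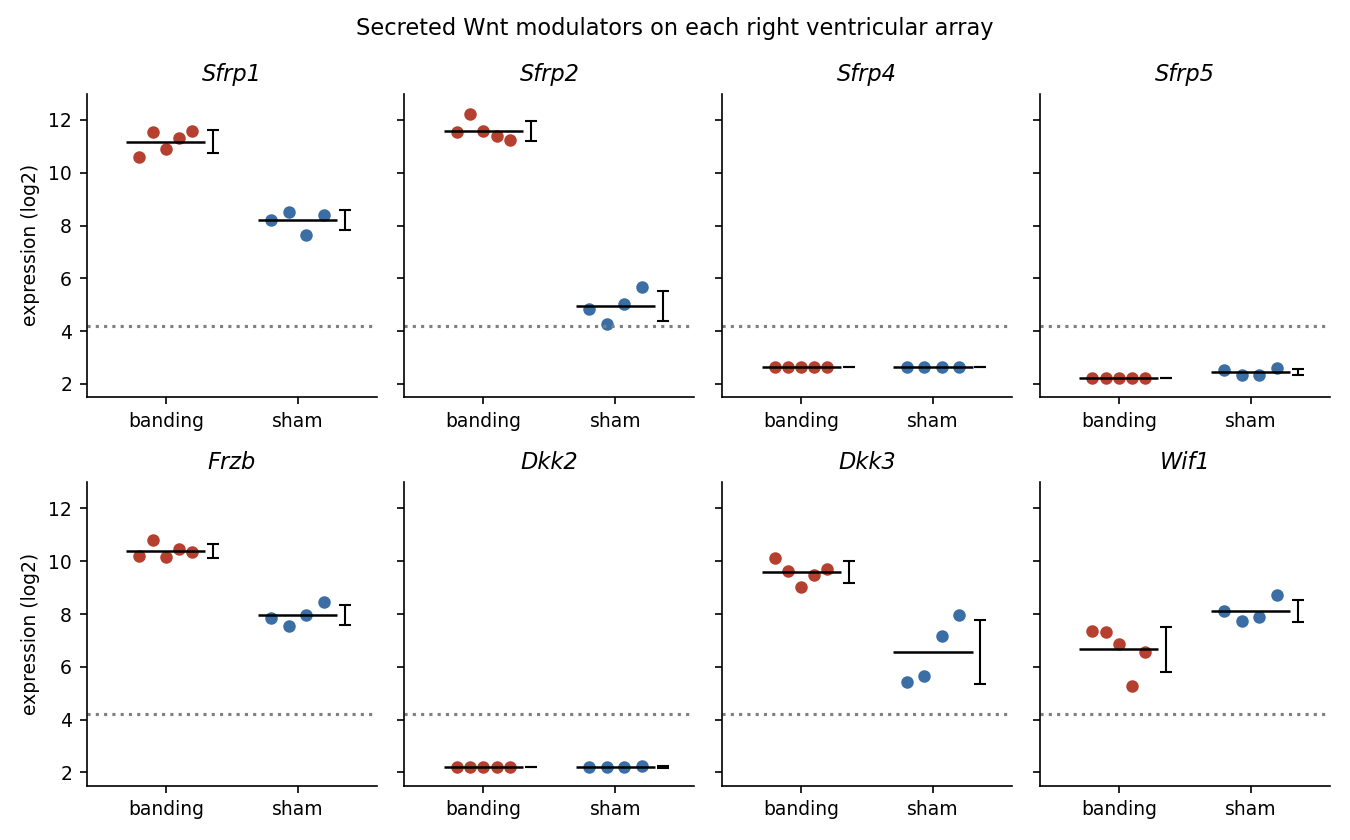
Expression (log2) of the 8 genes on each array, with 5 banding arrays to the left of 4 sham arrays in each panel; bars mark the mean, whiskers ± SD, and the dotted line the dim level of 4.198. Sfrp2 stood between 11.24 and 12.22 in banding and between 4.28 and 5.68 in sham, while Sfrp4, Sfrp5 and Dkk2 stayed under the line throughout.

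Sfrp2 was the member with the largest difference. The protein binds Wnts and, in mice, also acts on procollagen processing by Bmp1. It stood at 11.54, 12.22, 11.57, 11.39 and 11.24 on banding replicates 1 to 5, against 4.84, 4.28, 5.01 and 5.68 on sham replicates 1 to 4. The groups were far apart, with more than 5 log2 units between the lowest banding and the highest sham array. The means were 11.59 ± 0.37 across banding arrays (SD, n = 5) and 4.95 ± 0.58 across sham arrays (SD, n = 4). The difference was 6.64 ± 0.31 log2 units (SE), or 99.6-fold. The sham mean lay less than 1 log2 unit above the dim level. Among the 11013 genes above the dim level in at least 1 group, Sfrp2 had the 5th largest rise. Leaving out any 1 array kept the difference between 6.41 and 6.88.

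Sfrp1 was measured by 5 probe sets, and all of them were higher in banding. Its protein acts mainly as a Wnt antagonist. On probe set 1460187_at, the one with the highest mean, values were 10.58, 11.53, 10.91, 11.31 and 11.58 in banding, against 8.21, 8.51, 7.66 and 8.40 in sham. The lowest banding array lay more than 2 log2 units above the highest sham array. The means were 11.18 ± 0.43 across banding arrays (SD, n = 5) and 8.19 ± 0.38 across sham arrays (SD, n = 4), a difference of 2.99 ± 0.27 log2 units (SE), or 7.93-fold.

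The other probe sets of Sfrp1 gave differences of 3.28 ± 0.37 (1416594_at), 3.08 ± 0.26 (1448395_at), 2.72 ± 0.21 (1428136_at) and 1.80 ± 0.23 (1438620_x_at; SE for each). The groups did not overlap on any of the 5. The smallest difference belongs to the probe set whose suffix marks probes that can hybridise to other transcripts, at 7.80 ± 0.44 across banding arrays (SD, n = 5) and 6.00 ± 0.16 across sham arrays (SD, n = 4). The 5 probe sets did not share 1 pattern within the sham group. On 1416594_at, sham replicates 3 and 4 stood at 5.40 and 5.41 and sham replicates 1 and 2 at 6.60 and 6.67, while on 1448395_at sham replicate 4 was the highest of the sham arrays at 8.16.

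Frzb, also called Sfrp3 and first known from cartilage, was higher in banding on both of its probe sets. On 1416658_at it stood at 10.19, 10.81, 10.16, 10.46 and 10.36 in banding, against 7.84, 7.53, 7.98 and 8.45 in sham. Every banding array was above every sham array. The means were 10.40 ± 0.26 across banding arrays (SD, n = 5) and 7.95 ± 0.38 across sham arrays (SD, n = 4), a difference of 2.45 ± 0.21 log2 units (SE), or 5.45-fold. On 1448424_at the difference was 2.61 ± 0.23, with banding values of 8.23 to 9.17 and sham values of 5.81 to 6.51. Banding replicate 2 was the highest banding array on both Frzb probe sets and for Sfrp2.

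Sfrp4 and Sfrp5 gave no level to compare. Sfrp4 stood at 2.64 on 8 arrays and at 2.66 on banding replicate 3. Both probe sets of Sfrp5 were dim on all 9 arrays. The first stood at 2.20 throughout, and the other at 2.23 on all banding arrays and between 2.34 and 2.60 on the sham arrays. Of these, 1436075_at was past the threshold in the lower direction, with a difference of -0.23 log2 units wholly below the dim level, so no fold is given.

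Dkk3 was higher in banding but spread more widely in sham than any other member. It stood at 10.12, 9.63, 9.02, 9.46 and 9.72 on banding replicates 1 to 5, against 5.42, 5.66, 7.18 and 7.95 on sham replicates 1 to 4. The groups did not overlap, but the highest sham array came within 1.1 log2 units of the lowest banding array. The means were 9.59 ± 0.40 across banding arrays (SD, n = 5) and 6.55 ± 1.22 across sham arrays (SD, n = 4), a difference of 3.04 ± 0.56 log2 units (SE), or 8.20-fold. The second probe set, 1448669_at, had the same order of the sham arrays, at 4.43, 5.91, 6.63 and 7.96, and a difference of 2.90 ± 0.65. Dkk2, which acts on the coreceptors, was dim, at 2.20 on all banding arrays and 2.20 to 2.26 on the sham arrays.

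The Dkk3 values went with the mean level of 3 of the 7 listed atrial cardiomyocyte markers within each group. The mean of Myl7, Myl4 and Sln, genes of atrial contractile and calcium-handling proteins, was 13.01, 10.81, 9.07, 9.98 and 11.46 on banding replicates 1 to 5, against 8.66, 10.55, 11.31 and 11.27 on sham replicates 1 to 4. In banding, the order of the 5 arrays by Dkk3 on 1417312_at, the probe set with the higher mean, was the same as by this mean. On 1448669_at it was not, since banding replicate 2 (9.24) stood above banding replicate 5 (9.11). In sham, replicate 1 was the lowest by both and replicates 3 and 4 were the highest pair by both. Other markers of the atrial list followed Dkk3 less closely in banding. Nr2f1 (5.99) and Nr2f2 (7.62) were lowest on banding replicate 5, where Dkk3, at 9.72, was above all but banding replicate 1. Nppa was equally high on banding replicates 1 and 4 (15.31), where Dkk3 stood at 10.12 and 9.46. In sham, Nr2f1, Nr2f2 and Nppa were lowest on replicate 1, as Dkk3 was.

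With the atrial marker mean as a covariate, an alternative added after these values were seen, the difference of Dkk3 was 2.85 ± 0.42 log2 units (SE). Myl7, Myl4 and Sln differed by 0.19, 0.82 and 0.25 log2 units between groups, and none passed the threshold. The covariate therefore had little room to change the Dkk3 difference, and the fit cannot decide the part of atrial tissue. Of the 7 atrial markers, 3 were past the threshold and higher and 0 lower, Bmp10 was dim in both groups, and the summed level spanned 15.08 to 16.07 in banding and 11.82 to 14.33 in sham. Nppa, also a ventricular stress gene, averaged 15.20 in banding and 12.44 in sham, while Myl7 averaged 11.01 in banding and 10.83 in sham. The part of atrial tissue in the Dkk3 values was not tested.

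**Figure D2:**
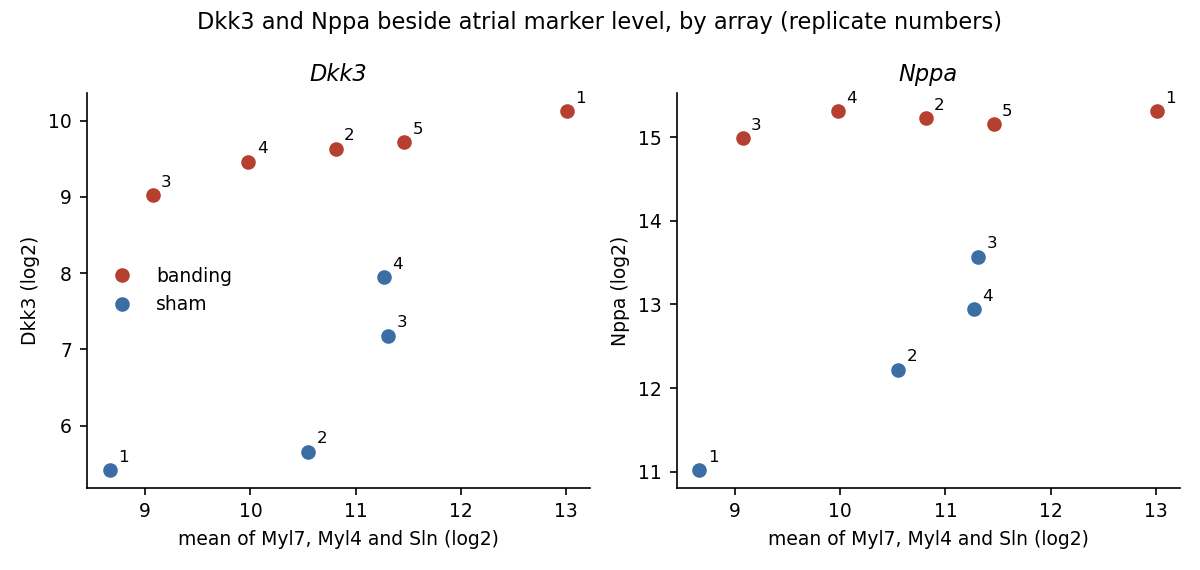
Expression (log2) of Dkk3 on the left and Nppa on the right, against the mean log2 level of the atrial markers Myl7, Myl4 and Sln, for each of the 5 banding and 4 sham arrays, numbered by replicate. Dkk3 lies between 9.02 and 10.12 in banding and between 5.42 and 7.95 in sham, and within each group the arrays with more atrial marker signal tend to stand higher.

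Wif1 was the 1 member above the dim level that was lower in banding. It stood at 7.35, 7.32, 6.86, 5.26 and 6.57 on banding replicates 1 to 5, against 8.13, 7.74, 7.89 and 8.71 on sham replicates 1 to 4. The groups did not overlap, but the highest banding array was within 0.4 log2 units of the lowest sham array, and banding replicate 4 stood more than 1 unit under the other banding arrays. The means were 6.67 ± 0.85 across banding arrays (SD, n = 5) and 8.12 ± 0.43 across sham arrays (SD, n = 4), a difference of -1.44 ± 0.46 log2 units (SE). Wif1 was past the threshold only narrowly, and it was not past it in 6 of the 9 fits that left out 1 array, where the difference ran from -1.61 to -1.09. It had the 552nd largest fall of the 11013 genes above the dim level.

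**Figure D3:**
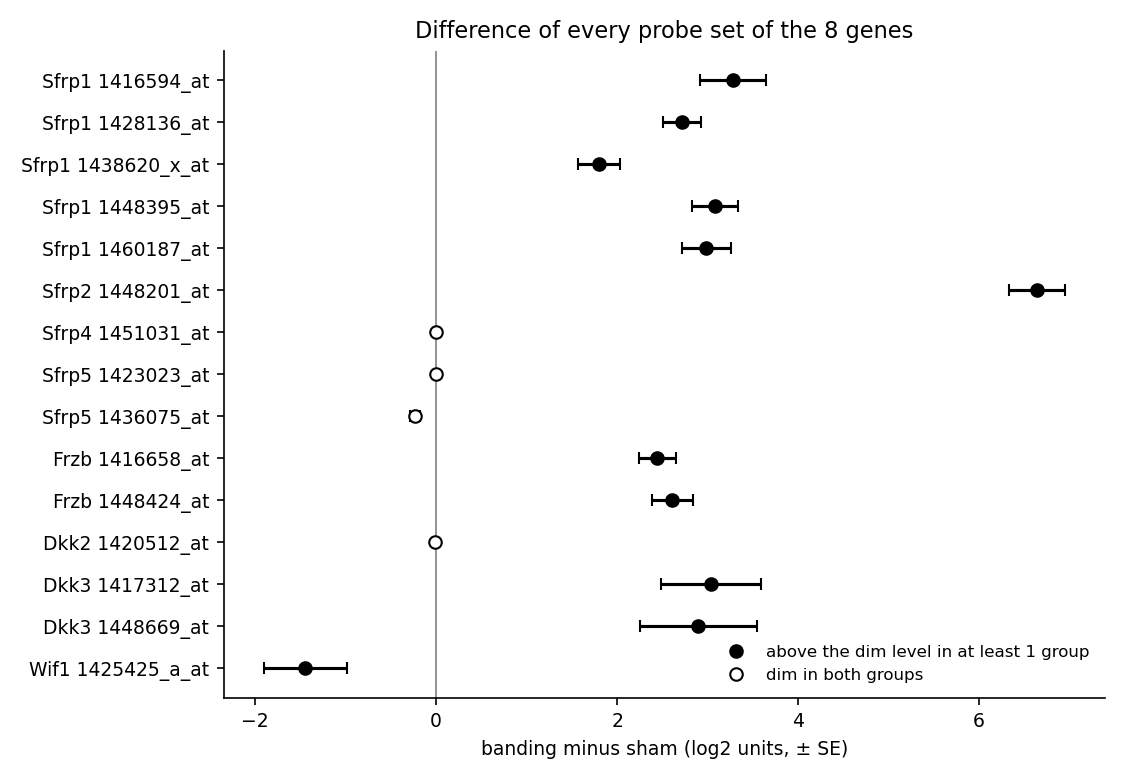
Difference of banding minus sham (log2 units, ± SE) for each of the 15 probe sets, with filled points for those above the dim level in at least 1 group and open points for those dim in both. The 5 probe sets of Sfrp1 lie between 1.80 and 3.28, and the pairs for Frzb and Dkk3 lie close to each other.

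Set against the genes above the dim level, the differences of Dkk3, Sfrp1 and Frzb ranked 139th, 144th and 249th from the top of 11013. These ranks come from the values that chose the set, and nothing is read from them. Over all genes, 7.9% passed with a difference of at least 1 log2 unit up, as these 3 and Sfrp2 did, and 5.82% with at least 1 unit down, as Wif1 did. On sham replicate 4, where liver transcripts were highest, 4 of the 5 members above the dim level had their highest sham value. The share of all genes with their highest sham value on sham replicate 4 was not counted, so nothing is read from this count. The summed level of the liver markers was 17.04 on that array. Without sham replicate 4 and banding replicate 5, the highest of their groups in that sum, 4 members passed in the higher direction, beside 2930 of 18193 genes. In that fit 1 member passed in the lower direction, beside 3247 genes, and Wif1 (-1.22) lost its call.

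**Figure D4:**
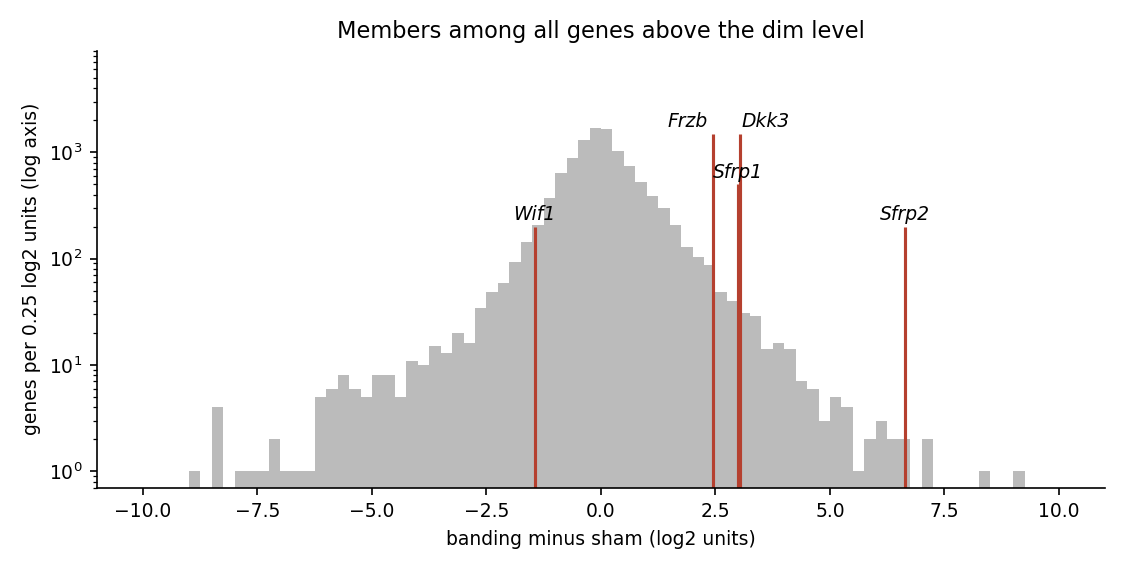
Distribution of the difference of banding minus sham (log2 units) over the 11013 genes above the dim level in at least 1 group, counted on a log axis in bins of 0.25 log2 units, with lines at the 5 members among them. Sfrp2 at 6.64 lies in the far upper tail, Sfrp1, Dkk3 and Frzb between 2.45 and 3.04, and Wif1 at -1.44 on the lower side.

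Likeness to a member was measured as the root mean square difference over the 9 arrays between profiles taken relative to the sham mean, with smaller values more alike. Since the 2 groups differ, it mostly reflects the size of the difference between groups. The 5 genes nearest to Sfrp2 were Col8a2 (0.42 log2 units), Ltbp2 (0.441), Col11a1 (0.505), Ptn (0.528) and Col12a1 (0.534). Of these, 3 encode collagen chains, Ltbp2 encodes a microfibril-associated protein and Ptn the growth factor pleiotrophin, and all but Ptn were dim in sham. Nearest to Sfrp1 were Tmem45a (0.148), Kcne4 (0.22) and Ctsk (0.254), the last encoding cathepsin K. Nearest to Frzb were Farp1 (0.151), Serpinf1 (0.157) and Fat1 (0.188). Nearest to Dkk3 was Nppa (0.514), which encodes atrial natriuretic peptide, and then Rab32 (0.578) and Sh3pxd2b (0.643). Nearest to Wif1 were Myrip (0.283), Btbd11 (0.374) and Iigp1 (0.383).

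All 12 ventricular cardiomyocyte markers were above the dim level, beside the liver markers in sham and atrial markers that varied between arrays, with Myl7 at 9.06 to 13.44 in banding and 9.03 to 11.63 in sham. The summed level of the ventricular markers was 18.58 to 18.78 in banding and 18.84 to 18.89 in sham. Of the 12, 1 was higher, 6 were lower and 5 did not pass. Beside this and the marker counts below, 18.4% of all genes were higher and 20% lower. Most fibroblast markers were higher in banding. Of 12, 11 were higher, 0 lower and 1 did not pass, and their summed level was 16.98 to 17.26 in banding and 15.06 to 15.24 in sham. All 8 myofibroblast markers were higher, with a summed level of 15.88 to 16.37 in banding and 12.93 to 13.22 in sham, and none of either list was dim in both groups. Col1a1, which encodes a chain of type I collagen, was 28.0-fold higher (adjusted p = 9.98e-06). Macrophage markers were higher for 8 of 9, endothelial markers for 6 of 9, and pericyte and smooth muscle markers for 5 of 8 with 1 lower. Epicardial markers were higher for 3 of 8, with a summed level of 8.95 to 9.83 in banding and 8.67 to 9.92 in sham. Valve markers were higher for 1 of 5 and lower for 2, and Schwann cell markers were lower for 2 of 4. All 7 lymphocyte markers were dim, as were 3 of 4 adipocyte and 5 of 6 cartilage and bone markers. The other cartilage marker, the transcription factor gene Sox9, was 7.64-fold higher (limma adjusted p = 0.001). The part of these cells in the differences of the secreted modulators was not tested, and in bulk tissue more cells of a type and more RNA per cell cannot be told apart.

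The other Wnt pathway genes were read in the same limma fit, with p-values adjusted over all genes. Among 117 such genes in 9 lists, 39 passed in the higher and 7 in the lower direction, leaving 71. Both groups were dim for 41 of the 117. The share past the threshold, 39.3%, was near the 38.4% of all genes. By direction, 33.3% of the pathway genes were higher and 5.98% lower, against 18.4% and 20% of all genes, a contrast that was not tested. The 20% includes liver transcripts of the sham arrays, all 14 of whose markers were lower, and their part in that share was not counted. The 7 lower genes became 14 with arrays centred on their medians. Over the 76 pathway genes above the dim level the median difference was 0.32 log2 units, against -0.02 over all genes above it. The counts of the single lists below stand beside 18.4% of all genes higher and 20% lower. Among all genes above the dim level in at least 1 group, 29.8% were higher and 32.2% lower. Contrasts of single lists with these shares were not tested.

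**Figure D5:**
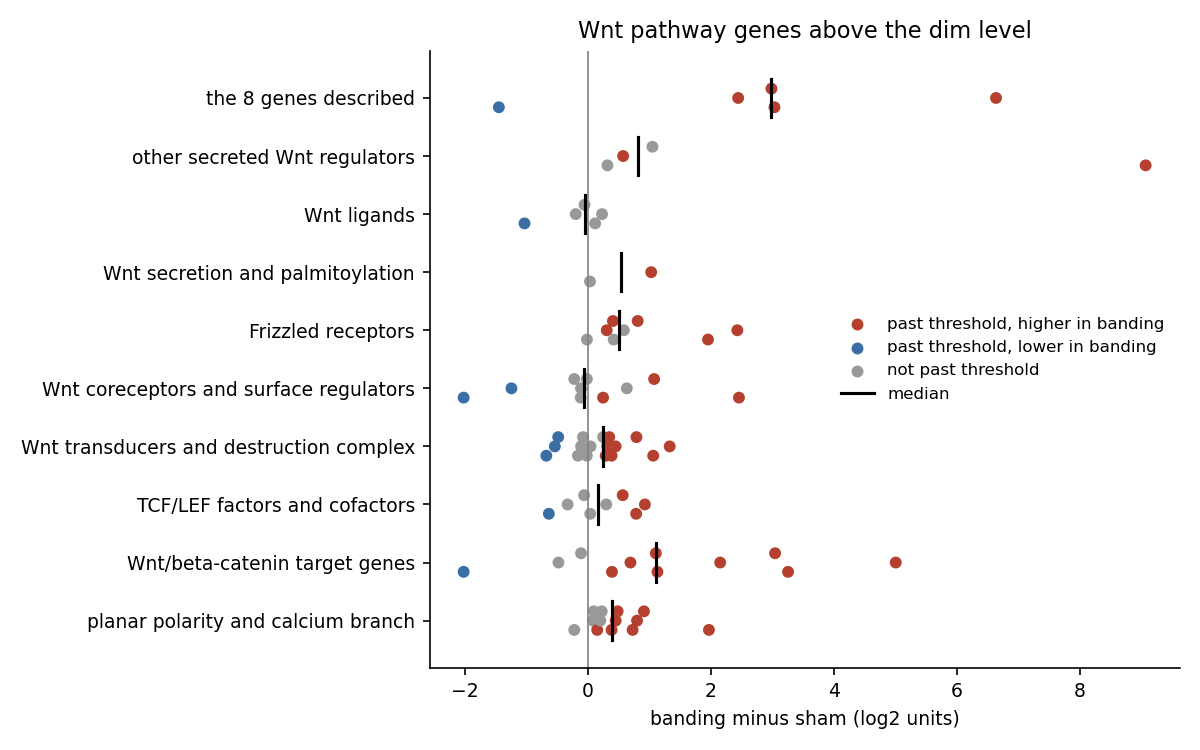
Difference of banding minus sham (log2 units) for each gene above the dim level, by list, coloured by whether it passed an adjusted p of 0.05 and in which direction, with a black bar at the median of each list. Ligands cluster near 0 with Wnt5a lower, while Frizzled receptors and target genes extend to higher values in banding.

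Among other secreted regulators, 10 of 14 were dim in both groups, among them Dkk1, Dkk4, Notum, Rspo1, Rspo2, Rspo3 and Rspo4. Cthrc1, which in mice can bind Wnts and their receptors, was at least 426-fold higher in banding (log2 9.07 ± 0.30, SE; adjusted p = 8.51e-06). It is also a myofibroblast marker. Igfbp4, a binding protein that can block Frizzled and Lrp6, was 1.49-fold higher (0.58 ± 0.18, adjusted p = 0.035), and this call was lost on leaving out any of 8 single arrays, with an adjusted p of up to 0.0923. The remaining 2 above the dim level, Sost and Tinagl1, did not pass.

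The Wnt ligands themselves were mostly undetected, with 14 of 19 dim in both groups. Wnt5a, a ligand of the branches outside beta-catenin, fell 2.04-fold (log2 -1.03 ± 0.20, SE; adjusted p = 0.00411). It stood at 7.48, 6.96, 6.98, 6.63 and 6.56 in banding, against 7.80, 8.07, 7.79 and 8.14 in sham, without overlap. With its probe sets averaged, the fall was -0.62 log2 units. Wnt11, which guides early heart development, averaged 6.72 ± 0.23 across banding arrays (SD, n = 5) and 6.92 ± 0.22 across sham arrays (SD, n = 4) and did not pass (limma adjusted p = 0.379). Wnt5b, Wnt7a and Wnt9a did not pass. Wls, which carries Wnts to the cell surface, rose 2.04-fold (1.03 ± 0.13, adjusted p = 0.000536), and by 0.68 log2 units when its probe sets were averaged, and Porcn, which attaches their lipid, did not pass (adjusted p = 0.948).

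Of 10 Frizzled receptors, 5 were higher, 0 lower and 5 did not pass, of which Fzd9 and Fzd10 were dim in both groups. Fzd2 stood at 8.05, 8.50, 8.01, 8.60 and 8.21 in banding, against 5.79, 5.81, 5.72 and 6.04 in sham, a rise of 5.40-fold (log2 2.43 ± 0.14, SE; adjusted p = 3.29e-05). Fzd1 stood at 9.14, 9.52, 9.34, 9.41 and 9.28 in banding, against 7.16, 7.34, 7.22 and 7.80 in sham, a rise of 3.88-fold (1.96 ± 0.14, adjusted p = 6.66e-05). Both receptors were separated by more than 1.3 log2 units between groups. With probe sets averaged, the rise was 1.31 log2 units for Fzd1 and 3.13 for Fzd2. Fzd6 rose 1.76-fold (adjusted p = 0.000242). Averaging its probe sets gave a difference of 0.42 in place of 0.81 log2 units. The small rises of Fzd4 (1.33-fold, adjusted p = 0.0195) and Fzd7 (1.24-fold, adjusted p = 0.0462) were each lost on leaving out single arrays, with adjusted p of up to 0.0549 for Fzd4 and up to 0.12 for Fzd7. The Fzd7 difference was 0.16 in place of 0.31 log2 units when its probe sets were averaged.

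Of 13 coreceptors and surface regulators, 3 were higher, 2 lower and 8 did not pass. Ror2, a receptor of Wnt5a, stood at 7.07, 7.31, 6.57, 7.17 and 7.13 in banding, against 4.21, 4.30, 5.25 and 4.61 in sham, and rose 5.50-fold (log2 2.46 ± 0.24, SE; adjusted p = 0.000213). With its probe sets averaged, the rise was 1.23 log2 units. Ror1 rose 2.11-fold (adjusted p = 0.000149; 1.08 log2 units, and 0.60 when its probe sets were averaged), and the rise of Ryk was 1.19-fold (adjusted p = 0.00496). The coreceptors of the beta-catenin branch did not pass, with Lrp6 at 9.66 ± 0.07 across banding arrays (SD, n = 5) and 9.77 ± 0.05 across sham arrays (SD, n = 4; limma adjusted p = 0.066) and Lrp5 dim in sham (adjusted p = 0.0981). Averaging the probe sets of Lrp6 turned its difference to 0.14, which did not pass. Tnfrsf19 fell at least 3.65-fold (adjusted p = 0.000674), with a log2 difference of -0.74 when its probe sets were averaged. Tnfrsf19 also stands in the target list. Lgr6, a receptor of R-spondins, fell 2.36-fold (adjusted p = 0.0336), and this call was lost on leaving out single arrays, with an adjusted p of up to 0.0832.

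Among 20 transducers and destruction complex genes, 8 passed in the higher direction, 3 in the lower and 9 in none. Ctnnb1, which encodes beta-catenin, rose 1.25-fold (log2 0.32 ± 0.04, SE; adjusted p = 0.000323), and the kinase gene Csnk1a1 rose 1.27-fold (adjusted p = 0.000378). Dact1 and Dact3, whose proteins bind Dishevelled, were higher too, Dact1 by 2.52-fold (adjusted p = 0.000415) and Dact3 by 2.09-fold (adjusted p = 0.00022), and the Dact3 rise was 0.27 log2 units when its probe sets were averaged. Cby1, a beta-catenin antagonist, fell 1.45-fold (adjusted p = 0.000995). Of 11 TCF/LEF factors and cofactors, 3 were higher, 1 lower and 7 did not pass. Bcl9, a beta-catenin coactivator, was at least 1.40-fold lower (adjusted p = 0.0473), a call lost on leaving out single arrays, and the rise of Tle1 (0.57 log2 units, adjusted p = 0.0195) was lost when its probe sets were averaged (0.23, adjusted p = 0.116). Tcf7l1 rose 1.73-fold (adjusted p = 0.0016) and the corepressor gene Tle3 1.91-fold (adjusted p = 0.000149). Averaging probe sets gave 0.49 in place of 0.79 log2 units for Tcf7l1 and 0.52 in place of 0.93 for Tle3. Lef1 was dim on all arrays.

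Genes known as targets of beta-catenin gave a mixed picture. Among 17 measured, 8 passed in the higher direction, 1 (Tnfrsf19) in the lower and 8 in none, with 6 dim in both groups. Ccn4, a matricellular gene first found as Wnt-induced, stood at 9.11, 10.48, 9.66, 9.89 and 10.21 in banding, against 4.88, 4.58, 4.80 and 5.19 in sham, a rise of 32.2-fold (log2 5.01 ± 0.28, SE; adjusted p = 2.74e-05). Ccn5 rose 8.26-fold (3.05 ± 0.30, adjusted p = 0.000212) and Cd44, the hyaluronan receptor, 4.45-fold (adjusted p = 6.61e-05). The Cd44 rise was 1.67 in place of 2.15 log2 units when its probe sets were averaged. Nkd2, whose protein binds Dishevelled, rose at least 8.27-fold (adjusted p = 0.000418), and by 2.03 log2 units when its probe sets were averaged. Axin2, the most widely used readout of the branch, stood at 4.97, 4.39, 4.81, 4.81 and 3.89 in banding, against 5.06, 4.99, 4.43 and 5.71 in sham. Its groups overlapped, and its difference of -0.48 ± 0.31 log2 units (SE) did not pass (adjusted p = 0.308). Notum, Sp5, Rnf43, Lgr5 and Nkd1 were dim in both groups. Ccn4, Ccn5, Cd44 and Nkd2 were higher in banding, as 11 of the 12 fibroblast markers were, and the part of fibroblasts was not tested.

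In the planar polarity and calcium branch, 9 of 17 genes passed in the higher direction, none in the lower, and 8 did not pass. Of the 9 higher genes, 8 were above the dim level in at least 1 group. Of all genes, liver transcripts included, 18.4% passed in the higher direction and 20% in the lower. Prickle2 rose 1.88-fold (adjusted p = 0.002), Vangl1 1.66-fold (adjusted p = 0.00319), Nfatc3 1.37-fold (adjusted p = 0.00648) and Rhoa 1.31-fold (adjusted p = 0.000115). Nfatc4, a calcineurin-regulated transcription factor, rose 3.92-fold (log2 1.97 ± 0.22, SE; adjusted p = 0.000368) on a probe set whose suffix marks possible cross-hybridisation. Without such probe sets its difference was 0.15 and did not pass (adjusted p = 0.458). The probe sets of Nfatc3 and Rhoa carry the same suffix, and both genes kept their calls under all 20 alternatives.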

How the data were processed

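Right ventricular RNA of 5 banding and 4 sham arrays was analysed. Values deposited by the authors are log2 expression for each probe set, after their background correction and normalisation. RMA and GCRMA are named in the submitters' processing notes, without version, role or order, and the values show a log2 scale, 2.198 to 16.43. Of 45101 probe sets, 34945 named 1 gene, and each of the 18193 genes took the probe set whose mean over the 9 arrays was highest.

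The banding and sham groups were fitted with lmFit and eBayes (limma 3.58.1, R 4.3.3; no covariate, two-sided tests), and p-values were adjusted by Benjamini-Hochberg over every gene, with a threshold of 0.05. Member probe sets came from the same fit over all 34945. A fold whose lower group was dim was computed with that group's values raised to the dim level on each array, and is a lower bound. The fit was tested on simulated data. Summed marker levels are log2 of the summed linear values. Promoters are from RefSeq (GRCm38.p6), and the planned protein comparison was not run. Figures were drawn in matplotlib 3.10.9 with pandas 2.3.3 (Python 3.11.15).

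The members and lists were chosen with earlier results of these data known. Named genes were all members, up to 5 genes with the smallest p of each pathway list, a fixed set of pathway genes whatever their p, the likeness genes and up to 3 markers of a cell type. Porcn, Sost, Tinagl1, Wnt5b, Wnt7a, Wnt9a and genes named only as dim were added after their values were seen. Alternatives covered the choice of probe set, dim genes, scaling, the fit, and left-out arrays.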

Additional observations from a re-analysis of the deposited data

Results flagged for a closer look

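Among 94 groups checked (each array group of the member probe sets above the dim level and of the named pathway genes), 6 held 1 array far from the others by Dixon's criterion, where chance flags about 5%. None was a member. Fzd4 stood at 10.25 on sham replicate 1, with the nearest sham array at 10.05. Ror1 stood at 7.16 on sham replicate 3, against 7.47 on the nearest. Dact1 stood at 7.28 on sham replicate 1, against 7.79. Tcf7l1 stood at 7.98 and Rhoa at 12.11 on sham replicate 4, against 7.75 and 12.22 on the nearest sham arrays. Cby1 stood at 7.65 on banding replicate 1, against 7.37 on the nearest banding array.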

How the results depend on the processing

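Of 41 genes followed through 20 alternatives, 29 kept their direction and call under all of them, among them Sfrp1, Sfrp2 and Frzb. A call was lost under at least 1 alternative for 11 genes, and Lrp6 reversed to 0.14 when its probe sets were averaged (not past the threshold) and gained a call under others. The 4 members higher in banding were at least 3 under every alternative. The count of members lower in banding, 2 as reported, was 1 with only genes above the dim level, with values floored at that level, without sham replicate 4 and banding replicate 5 together and with a minimum difference of 1 log2 unit. It was 0 at an adjusted p of 0.01, and ran from 1 to 2 on leaving out single arrays. The first 2 of these settings remove the dim Sfrp5 by construction. With arrays centred on their medians, the pathway genes lower in banding numbered 14, against 7, and the cause was not tested. Same-numbered banding and sham arrays did not deviate together (correlations of -0.03 to 0.04), and different-numbered arrays gave -0.123 to 0.131. This check showed no sign of pairing by number, but it cannot exclude that the samples were paired. With the replicate number as a block, 0 members were lower, and Dkk3, Wif1 (-1.42), Wnt5a (limma adjusted p = 0.0677), Vangl1 (0.0551), Fzd4, Fzd7, Igfbp4 and Lgr6 lost their calls. Over all 20 alternatives the difference ran from 2.66 to 3.50 for Dkk3 and from -1.61 to -1.09 for Wif1, which lost its call under 8. The number of arrays and the dim level limit what can be seen for Sfrp4, Sfrp5, Dkk2 and most ligands.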
